A study of Rattus norvegicus with 14 samples.

Results

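Synaptotagmins and SV2 proteins sit in the membranes of synaptic and secretory vesicles. All probe sets of the array whose platform annotation names Syt1, Syt2, Syt4, Syt5, Syt7, Syt11, Sv2a or Sv2b alone were taken, dim ones included. The genes themselves were chosen with earlier results of these data known, so counts over them are not independent evidence. The probe sets taken were 12 of the 15923, and stood for 7 of the 8 genes listed and of the 10412 genes that have a probe set named for them alone. No probe set was named for Syt1 alone, so Syt1 has no value here. Of the 12, 8 were bright enough to be tested, for 6 genes, and 4 were dim.

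The tissue was CA3 of the hippocampus from young male Long-Evans rats, 3 to 4 months old, with 1 array per animal, 7 learning activated rats and 7 controls. All 14 rats had earlier been trained to find a platform in a standard water maze, and after 2 to 3 weeks had 8 trials, 8 min apart, in an unfamiliar pool. Learning rats swam among orienting cues with a visible platform in a fixed place. For control rats the visible platform changed place from trial to trial and the room gave no useful cues. A 90 s probe trial without platform followed 1 h later in both groups, and tissue was collected right after it. Cues and platform movement differ together between the groups, so their effects cannot be told apart. The study asked how fast encoding of a place changes CA3 transcripts of synaptic plasticity.

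In neurons, synaptotagmins carry paired C2 domains that bind membranes, in many isoforms in response to calcium. Syt1 and Syt2 are the fast calcium sensors of transmitter release, Syt7 a slower one of high affinity, and Syt4 and Syt11 lack full calcium binding in the first C2 domain. SV2 proteins are vesicle glycoproteins with the fold of sugar transporters that bind synaptotagmin, help to prime release and serve as entry receptors of botulinum toxins. Sv2a is also the binding site of the antiepileptic drug levetiracetam. Transcripts in dissected CA3 come from pyramidal cells, interneurons and glia together, so a change in the share of a cell type and a change in RNA per cell cannot be told apart.

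The bases before the start sites are shown for Sv2b and Syt11, the members called higher in the learning group, and for Syt4. By Pearson's r, 1 Syt4 probe set followed 1 of the Sv2b probe sets from animal to animal. Each window is the 250 bases before the start site in RefSeq on GRCr8, read 5′ to 3′ along the gene. Entries were found for 6 of the 8 genes. The Sv2b window is chr1:138562259-138562508, minus strand, the Syt11 window chr2:176529776-176530025, minus strand, and the Syt4 window chr18:23320864-23321113, minus strand. Capitals mark matches on either strand to the cyclic AMP response element TGACGTCA, its half-site TGACG (which lies inside the full element), the GC box GGGCGG and the EGR element GCGNGGGCG (which can overlap a GC box).
Sv2b: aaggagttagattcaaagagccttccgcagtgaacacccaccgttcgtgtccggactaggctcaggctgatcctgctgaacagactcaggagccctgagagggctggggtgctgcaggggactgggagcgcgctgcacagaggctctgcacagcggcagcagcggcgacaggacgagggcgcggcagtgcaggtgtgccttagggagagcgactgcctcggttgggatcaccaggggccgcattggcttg
Syt11: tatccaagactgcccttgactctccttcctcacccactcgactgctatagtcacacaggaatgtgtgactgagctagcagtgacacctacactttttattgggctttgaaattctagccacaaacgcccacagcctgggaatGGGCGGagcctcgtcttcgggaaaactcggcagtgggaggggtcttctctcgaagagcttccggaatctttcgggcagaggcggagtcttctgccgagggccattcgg
Syt4: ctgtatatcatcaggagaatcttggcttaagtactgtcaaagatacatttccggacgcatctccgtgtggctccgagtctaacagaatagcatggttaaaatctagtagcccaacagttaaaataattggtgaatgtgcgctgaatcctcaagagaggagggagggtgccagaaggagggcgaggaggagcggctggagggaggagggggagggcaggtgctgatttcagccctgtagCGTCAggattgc
The Sv2b window held none of these letters, Syt11 held 1 GC box that begins 108 bases before the start, and Syt4 held 1 half-site, on the reverse strand, that begins 12 bases before it. Of all 33469 windows of that length, 1.59% held the full response element, 18.2% the half-site, 30.5% the GC box and 4.29% the EGR element. These matches are letters in a window and not measured binding sites.

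Arrays correlated with each other between 0.983 and 0.995. Control replicate 5 stood apart in RNA quality: its log2 ratio of 3′ to 5′ signal was 2.57 for hexokinase, against 1.03 to 1.61 in the other 13 arrays, and it was also the highest for Gapdh and beta-actin. The Gapdh ratio also differed between the groups, at 0.45 ± 0.05 in learning and 0.51 ± 0.06 in control arrays (exact permutation p = 0.0443). Those of hexokinase (exact permutation p = 0.281) and beta-actin (exact permutation p = 0.460) did not pass. Of the 7 CA3 pyramidal markers listed, 6 were tested, among them Grik4 and Bok, and had a mean log2 level of 8.97 ± 0.07 in the learning and 8.89 ± 0.06 in the control group (SD, n = 7 each, exact permutation, two-sided p = 0.0321). Grik4 itself had a difference of -0.015 and Bok 0.011. The largest was 0.24 for Elavl4, and none of the 6 was called. The 8 interneuron markers averaged 7.41 ± 0.14 in learning arrays and 7.43 ± 0.07 in control arrays (exact p = 0.800), and the 7 astrocyte markers 10.18 ± 0.06 in learning arrays and 10.19 ± 0.06 in control arrays (exact p = 0.855). Single markers in these lists differed in sign: Gad2 had a difference of 0.76 where the other 7 interneuron markers had -0.23 to -0.026, and Slc1a2 had 0.45 where the other 6 astrocyte markers had -0.21 to -0.0094, with none called. CA1 and dentate markers were also present: Wfs1 of CA1 averaged 8.71 in learning and 8.77 in control arrays, and Prox1 of the dentate 5.15 in learning and 5.35 in control arrays. The 5 tested of 6 CA1 markers averaged 8.04 ± 0.17 in learning and 8.06 ± 0.31 in control arrays (exact permutation p = 0.908). They differed in sign, from -0.11 for Mpped1 to 0.14 for Pou3f1. The 3 tested of 6 dentate markers averaged 7.07 ± 0.23 in learning and 7.28 ± 0.36 in control arrays (exact permutation p = 0.200).

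Of the 8 tested probe sets, 2 were called higher in the learning group by limma at a Benjamini-Hochberg adjusted p under 0.05, 1 of Sv2b and the 1 of Syt11, and the other 6 were not called. Of all 9520 tested probe sets 3.35% were called in either direction and 2.55% were called higher. At an unadjusted p under 0.05, 5 of the 8 were higher, against 9.34% of all probe sets. Fold changes were above 0 in 6 of the 8, against 42.0% of all, and their median was 0.31, against -0.02 over all tested probe sets (log2, learning minus control). Groups did not overlap in 1 of the 8, against 1.73% of all probe sets with learning arrays higher.

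**Figure D1:**
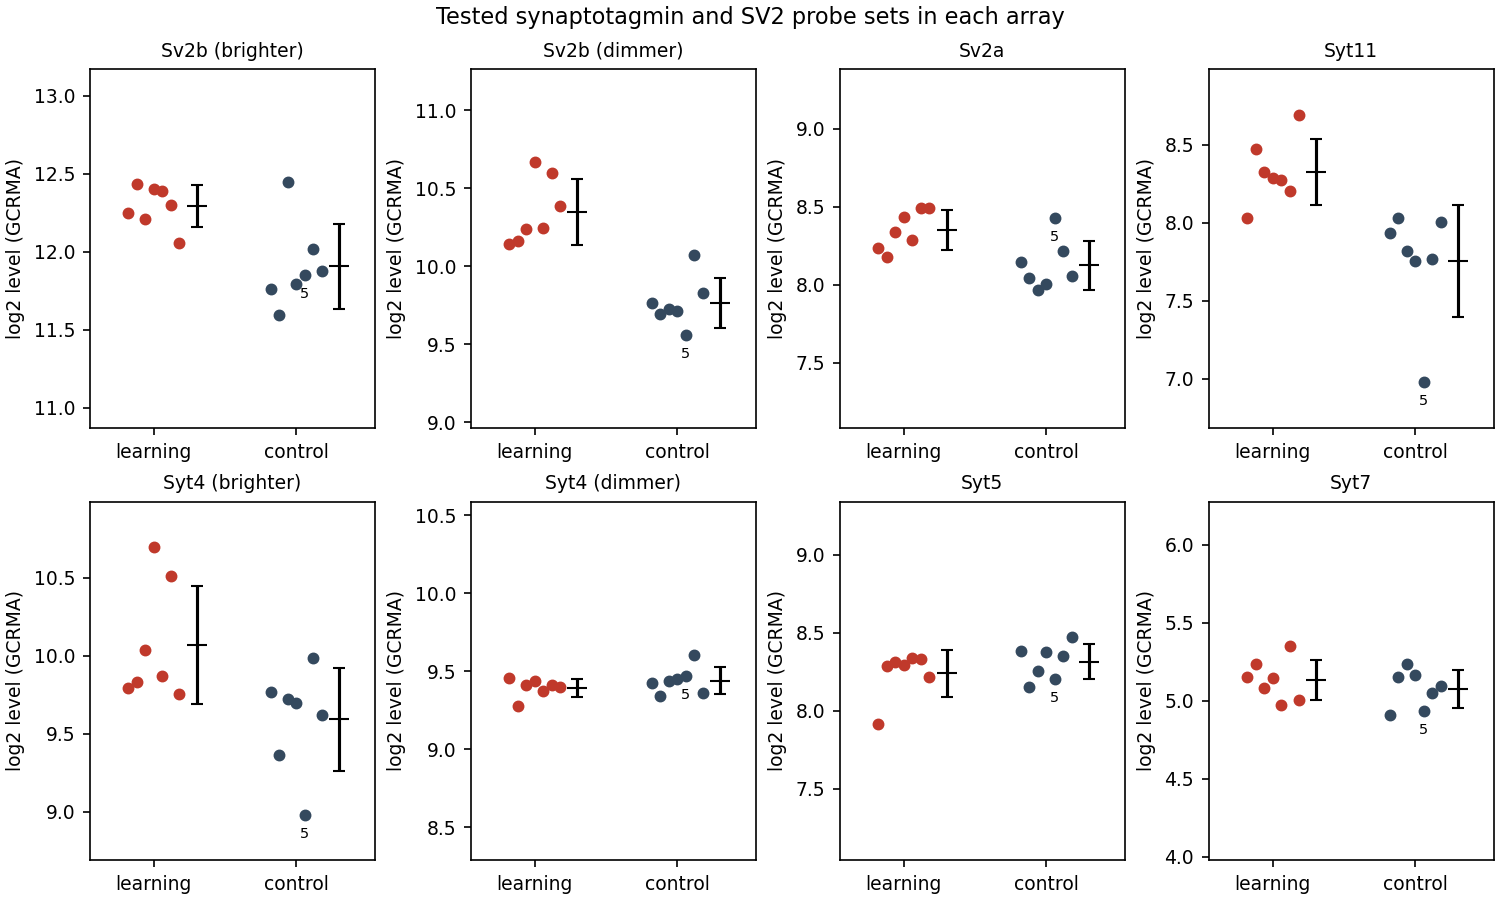
Log2 level of each tested probe set in each array, with learning arrays left and control arrays right in every panel, and group mean ± SD beside the points (n = 7 each). All panels span the same log2 range, and control replicate 5 is numbered. At the dimmer Sv2b probe set every learning array lies above every control array, and at Syt11 control replicate 5 lies far below the other control arrays.

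Sv2b, a brain isoform of SV2, was higher in the learning group at both of its tested probe sets, and 1 of them was called. At the dimmer of them the learning arrays had a lowest level of 10.15, a median of 10.25 and a highest of 10.67, against 9.56, 9.72 and 10.08 in control arrays (log2). The groups did not overlap: the dimmest learning array lay 0.07 above the brightest control array. The means were 10.35 ± 0.21 in learning and 9.77 ± 0.16 in control arrays (SD, n = 7 each), a log2 fold change of 0.58 (SE 0.0925, 95% confidence interval of the fold 1.31 to 1.72, limma adjusted p = 0.00453). The call held without any one array, at adjusted p-values of 0.00301 to 0.0132, but not when the Gapdh 3′/5′ ratio was a covariate (0.54, adjusted p = 0.0512) or with the balance of dim against bright probe sets described for Syt4 (0.35, adjusted p = 0.436).

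At the brighter Sv2b probe set the learning arrays ran from 12.05 over a median of 12.30 to 12.44, and the control arrays from 11.59 over 11.85 to 12.45. All 7 learning arrays lay above the control mean, yet control replicate 3, at 12.45, was above every one of them. The means were 12.29 ± 0.13 in learning and 11.91 ± 0.27 in control arrays, a log2 fold change of 0.38 (SE 0.105, 1.31-fold, limma adjusted p = 0.0585). It was not called, and without control replicate 3 it was (0.47, adjusted p = 0.00834). It was also called with only probe sets above the 60th percentile kept (adjusted p = 0.0423) and with limma's variance trend (adjusted p = 0.0481), and the mean of the tested Sv2b probe sets was called at 0.48 (limma adjusted p = 0.00447). In all, it was called under 5 of 31 alternatives, that mean counted among them. It was not called under the other 26, such as the Gapdh ratio as covariate (0.29, limma adjusted p = 0.298) or the replicate block (limma adjusted p = 0.115). The difference between the Sv2b probe sets, brighter minus dimmer, averaged 1.94 ± 0.24 in learning and 2.14 ± 0.29 in control arrays, and the change of -0.20 did not pass (two-sided exact permutation p = 0.189, adjusted over 2 such pairs 0.189). The annotation lists the same expressed sequence tag for both. The third Sv2b probe set was dim, at 2.68 to 2.77 in learning and 2.69 to 2.72 in control arrays.

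Sv2a, the most widespread isoform, was 8.18 at lowest, 8.34 at the median and 8.49 at highest in learning arrays, against 7.97, 8.06 and 8.43 in control arrays. The groups overlapped: 5 of the 7 control arrays lay below every learning array, and control replicate 5 was the only one above the learning mean. Means of 8.35 ± 0.13 in learning and 8.12 ± 0.16 in control arrays gave a log2 fold change of 0.23 (SE 0.0727, 1.17-fold, 95% confidence interval 1.05 to 1.30, limma adjusted p = 0.0989), which was not called. Without control replicate 5 it was called, at 0.28 (adjusted p = 0.0273).

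**Figure D2:**
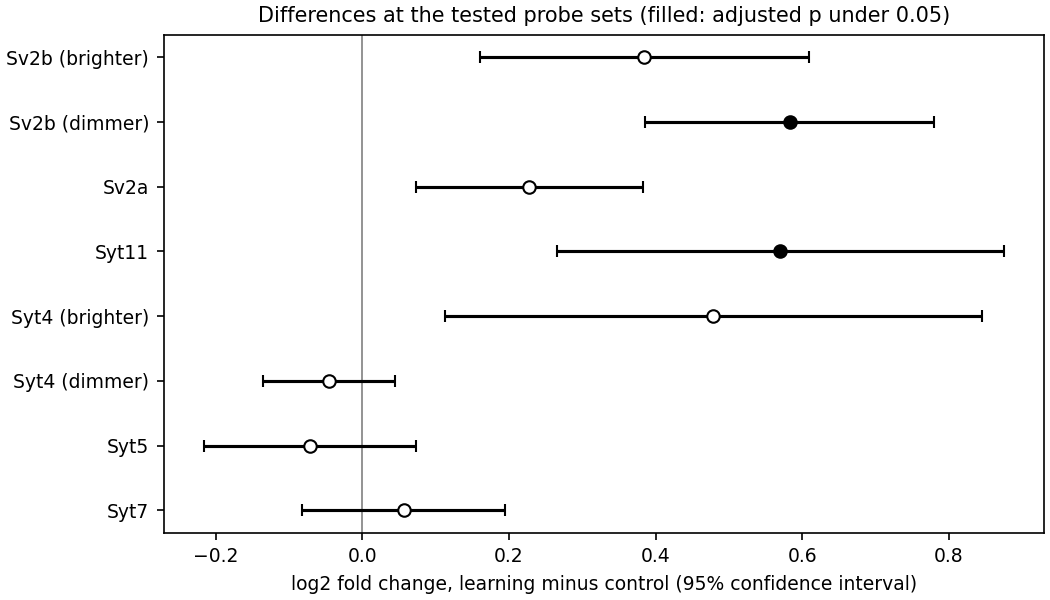
Log2 fold change, learning minus control, at the 8 tested probe sets, with 95% confidence intervals from limma over 14 arrays and filled points for called probe sets. The intervals of Sv2b, Sv2a, Syt11 and the brighter Syt4 probe set lie above 0, but only the dimmer Sv2b probe set and Syt11 passed after adjustment, and those of the dimmer Syt4 probe set, Syt5 and Syt7 include 0.

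Syt11, a synaptotagmin that does not sense calcium and is known to restrain endocytosis, was called higher at its single probe set. Its level was 8.03 at lowest, 8.29 at the median and 8.69 at highest in learning arrays, and 6.98, 7.82 and 8.03 in control arrays. Of the 7 learning arrays 6 lay above every control array, and learning replicate 1 was level with the highest control. The means were 8.33 ± 0.21 in learning and 7.76 ± 0.36 in control arrays, a log2 fold change of 0.57 (SE 0.143, 1.49-fold, 95% confidence interval 1.20 to 1.83, limma adjusted p = 0.0430).

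This call lay close to the threshold and 1 array carried part of its size. Control replicate 5 had a Syt11 level of 6.98, where the other 6 control arrays had 7.76 to 8.03. Without that array the fold change was 0.44 and still called (adjusted p = 0.0196), and it was also called without learning replicate 1 or control replicate 7. Without any one of the other 11 arrays it was not called, with adjusted p-values of up to 0.0780. Across the 14 arrays, with group means taken off, the level of Syt11 ran against the hexokinase 3′/5′ ratio (r = -0.81). It also ran with the balance of dim against bright probe sets of other genes (r = 0.80, and 0.37 without control replicate 5). With the hexokinase ratio as covariate the Syt11 difference was 0.42 (adjusted p = 0.0350), with the Gapdh ratio 0.37 (adjusted p = 0.262), with the dentate marker level 0.52 (adjusted p = 0.124), and with the balance 0.08 (adjusted p = 0.902). The call was also lost with no filter on dim probe sets (adjusted p = 0.0971), with a filter at the 20th percentile (0.0672) and with only the brightest probe set of each gene in the fit (0.0531). In all, Syt11 was called under 14 of 31 alternatives.

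Syt4, a synaptotagmin of dense core vesicles and dendrites whose transcript is known in rat as an early gene of depolarization, gave different answers at its 2 probe sets. At the brighter one learning arrays had 9.75 at lowest, 9.87 at the median and 10.70 at highest, and control arrays had 8.98, 9.70 and 9.99. All 7 learning arrays lay above the control mean and 3 above every control array. Means were 10.07 ± 0.38 in learning and 9.59 ± 0.33 in control arrays, and the log2 fold change of 0.48 (SE 0.172, 1.39-fold, 95% confidence interval 1.08 to 1.80) was not called (limma adjusted p = 0.136).

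At the dimmer one Syt4 had 9.27 at lowest, 9.41 at the median and 9.46 at highest in learning arrays, against 9.34, 9.43 and 9.60 in control arrays. The groups overlapped almost fully, with a log2 fold change of -0.05 (SE 0.0423, 95% confidence interval -0.14 to 0.04, limma adjusted p = 0.591). The brighter probe set minus the dimmer averaged 0.68 ± 0.36 in learning and 0.15 ± 0.31 in control arrays, so that the probe sets moved apart by 0.52 between the groups (two-sided exact permutation p = 0.00291, adjusted over 2 pairs 0.00583). This held without any one array, at differences of 0.42 to 0.58 and adjusted p-values of up to 0.0175. Learning replicates 4 and 6 had the widest gaps, 1.26 and 1.10, and control replicate 5 was the only array below 0, at -0.49. With the balance of dim against bright probe sets as covariate, the fold change at the brighter probe set was -0.03 (adjusted p = 0.975). That balance itself averaged -3.25 ± 0.03 in learning arrays and -3.42 ± 0.11 in control arrays (exact p = 5.83e-04, the smallest possible), over 350 genes, Sv2b among them. It ran from -3.30 to -3.20 in learning and from -3.65 to -3.34 in control arrays, without overlap. As the balance alone separates the groups, a fit with it as covariate cannot tell their effects apart.

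The brighter Syt4 probe set followed the dimmer Sv2b probe set from animal to animal. With group means taken off, Pearson's r was 0.86 over 14 arrays (permutation p = 4.50e-04, adjusted over 28 pairs of tested member probe sets 0.0126). Spearman's rho was 0.78 (permutation p = 0.00298, adjusted 0.0834), which did not pass the adjustment. Pearson's r was 0.89 within the learning group, 0.82 within the control group, 0.78 without learning replicate 4 and control replicate 5, the arrays farthest from the median, and 0.77 after the balance was regressed out. It was the only pair of the 28 past the adjusted threshold by Pearson's r. Sv2a had an r of 0.35 with the same Sv2b probe set (adjusted p = 0.480 by permutation), but 0.77 without control replicate 5. After the balance was regressed out that r was 0.78. It was 0.83 within the learning group and -0.13 within the control group. The other Syt4 probe set had an r of 0.45 with that Sv2b probe set (adjusted p = 0.480 by permutation), and 0.60 after the balance was regressed out. The brighter Syt4 probe set had 0.32 with the brighter Sv2b probe set (adjusted p = 0.520 by permutation). The 2 Sv2b probe sets had 0.12 with each other, and 0.20 after the balance was regressed out. Whether these r values differ from 0.86 was not tested.

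**Figure D3:**
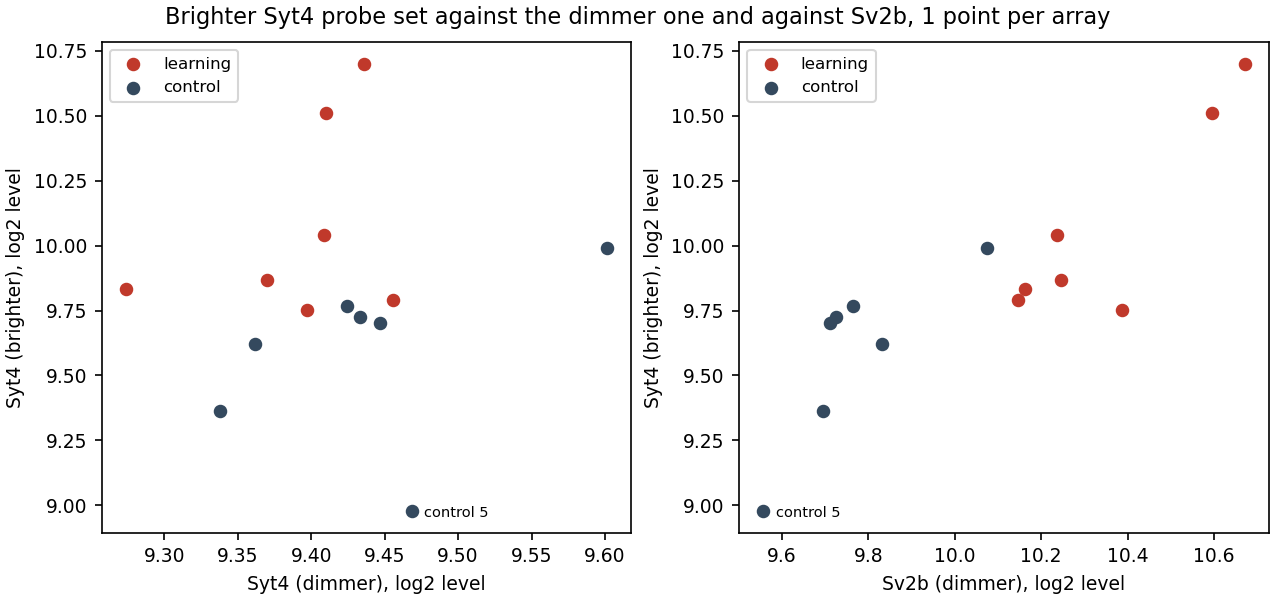
Log2 level of the brighter Syt4 probe set in each array against the dimmer Syt4 probe set (left) and against the dimmer Sv2b probe set (right), with learning and control arrays in separate colours. On the right the arrays of both groups run along a rising line (r = 0.86 with group means taken off), while on the left the r was 0.36.

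Syt5, a synaptotagmin of secretory vesicles, was not called. Its probe set had 7.91 at lowest, 8.29 at the median and 8.34 at highest in learning arrays, and 8.15, 8.35 and 8.47 in control arrays. The groups overlapped, with a log2 fold change of -0.07 (SE 0.0681, 95% confidence interval -0.22 to 0.07, limma adjusted p = 0.605). Learning replicate 1 was the low array. Syt7, the sensor of slow release and facilitation, had a tested probe set at 4.97, 5.15 and 5.35 in learning arrays, and 4.91, 5.10 and 5.24 in control arrays (lowest, median, highest). It differed by 0.06 (SE 0.0650, 95% confidence interval -0.08 to 0.19, limma adjusted p = 0.682). The intervals of Syt5 and Syt7 leave room for changes of up to -0.22 and 0.19.

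Syt2, the fast sensor of many inhibitory and hindbrain synapses, was dim, with 1.96 to 1.97 in learning and 1.95 to 1.97 in control arrays, far under the limit of 3.88 for a test. The other Syt7 probe sets were dim as well: one averaged 2.28 in learning and 2.34 in control arrays, and the other 2.29 in learning and 2.30 in control arrays. Values there are at the floor of the background model and show no level of these transcripts. With no filter the 4 dim probe sets had unadjusted limma p-values of 0.242 to 0.632.

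Tested markers of excitatory neurons averaged higher, and those of choroid plexus lower, in the learning group. The 3 tested of 4 listed excitatory markers averaged 11.33 ± 0.10 in learning and 10.99 ± 0.15 in control arrays (two-sided exact permutation p = 5.83e-04). Their ranges were 11.21 to 11.46 in learning arrays and 10.75 to 11.15 in control arrays. The difference was 0.76 for the kinase Camk2a (limma adjusted p = 0.0150), 0.14 for the vesicular glutamate transporter Slc17a7 (adjusted p = 0.178) and 0.12 for Nrgn (adjusted p = 0.0837). Spike-in probe sets were 0.20 brighter in learning arrays (exact p = 0.00524), and with their level as covariate the difference at the dimmer Sv2b probe set was 0.68 (adjusted p = 0.0123) and Syt11 0.73 (adjusted p = 0.0471). Of 5 choroid plexus markers 2 were tested, and together they averaged 5.84 ± 0.41 in learning arrays and 7.24 ± 0.85 in control arrays (SD, n = 7 each, exact permutation p = 0.00175), with ranges of 5.33 to 6.55 in learning arrays and 6.50 to 8.71 in control arrays. Ttr, the transthyretin secreted by choroid plexus, fell by 2.09 on the log2 scale (limma adjusted p = 0.0124), Igfbp2 had -0.70 (adjusted p = 0.237), and Folr1, Kcnj13 and Otx2 were dim in both groups. The part of the excitatory and choroid plexus markers in the member results was not tested.

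**Figure D4:**
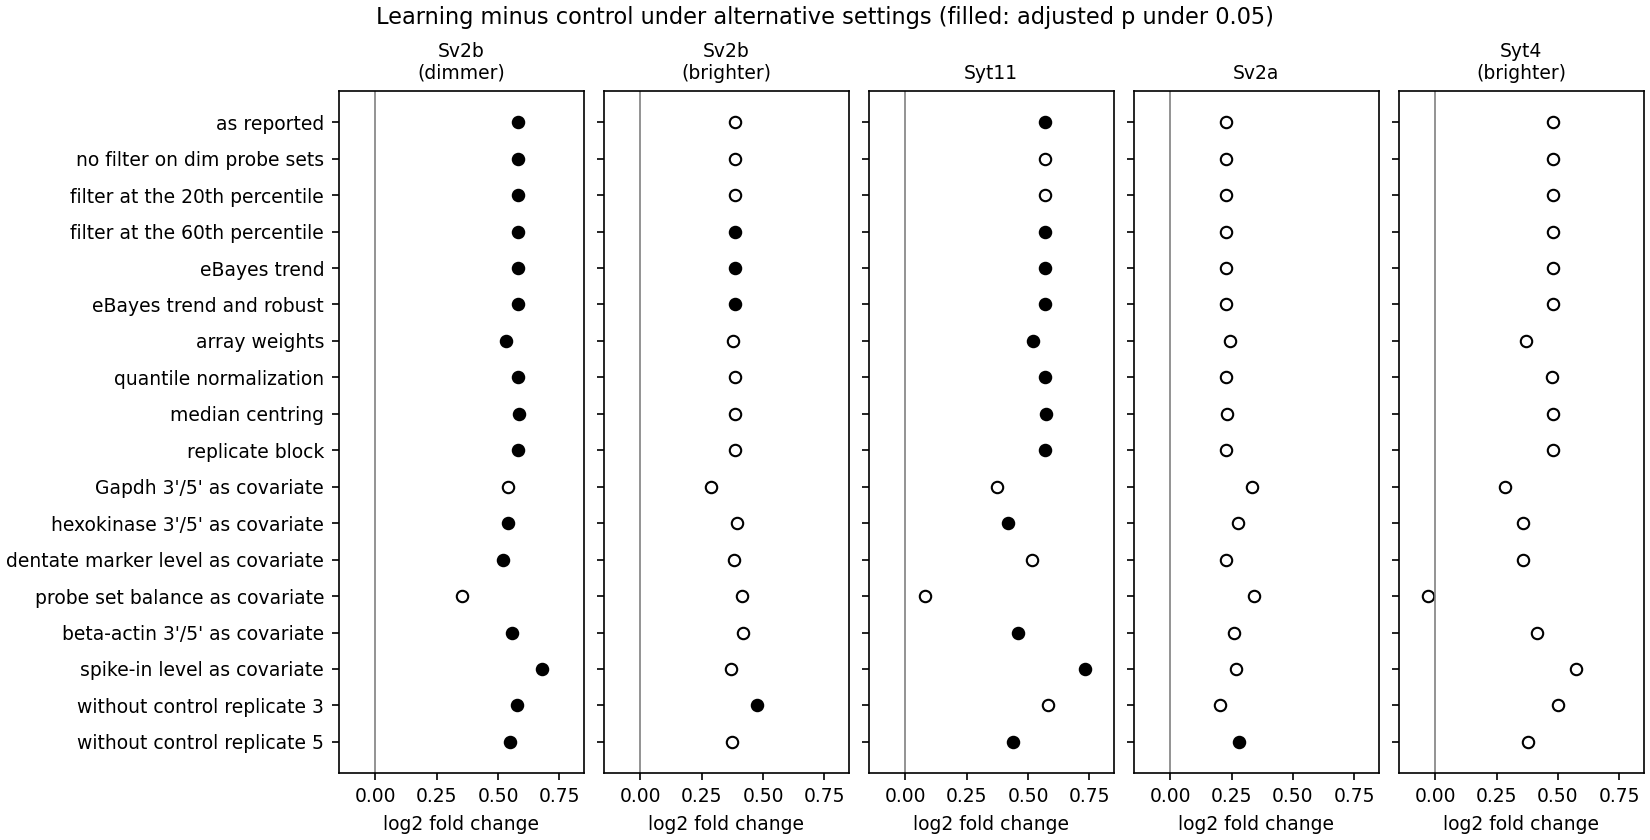
Log2 fold change, learning minus control, of 5 member probe sets under the settings named at the left, with filled points at an adjusted p under 0.05. The dimmer Sv2b probe set stays at 0.35 or above, Syt11 ranges from 0.08 to 0.73, and the brighter Syt4 probe set reaches -0.03 once the probe set balance is a covariate.

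The relatives of these genes and their partners in the vesicle cycle were then read at the brightest probe set of each gene. With p-values still adjusted over all 9520 probe sets, 1 of the 6 tested members, Syt11, was called at that probe set, where 1.59% of 6836 genes were called higher and 0.980% lower, and 36.1% had a fold change above 0. Of 21 other synaptotagmin, SV2 and related genes 6 were tested, and by limma 0 were called and 0 had an unadjusted p under 0.05. Their median was -0.02, with Syt17 at -0.17 (adjusted p = 0.306) and the SV2-related Svop at 0.06 (adjusted p = 0.685). Of 13 other calcium sensors and release regulators 7 were tested, 0 were called by limma, 3 had an unadjusted p under 0.05 (2 higher and 1 lower), and the median was 0.03, with Cadps2 at -0.18 and Ncs1 at -0.13, whose less bright probe set had 0.20 (none called).

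Of 24 other vesicle membrane genes 16 were tested, with a median of -0.0018 and 0 called by limma (2 higher at an unadjusted p under 0.05). At the brightest probe sets the vesicular transporters showed the largest differences, -0.18 for Slc32a1 of GABA and 0.14 for Slc17a7 of glutamate, and neither passed. The less bright Slc17a7 probe set had 0.42 (limma adjusted p = 0.148). That of Dnajc5 had 0.42 (limma adjusted p = 0.188), against -0.02 at its brightest. Scamp1, a carrier membrane protein of recycling vesicles, rose at its less bright probe set (0.23, limma adjusted p = 0.0389) but had 0.0096 at its brightest (adjusted p = 0.930). Of 25 genes of SNARE fusion and priming 18 were tested, with a median of 0.05 and 0 called by limma (before adjustment 6 were higher and 1 lower at p under 0.05). The largest values there were 0.65 for the active zone scaffold Pclo (adjusted p = 0.0937) and 0.61 for the SNARE-binding complexin Cplx2 (adjusted p = 0.0769), and Stxbp5 rose at its less bright probe set (0.62, limma adjusted p = 0.00925) but had 0.12 at its brightest (adjusted p = 0.172).

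Among 23 genes of synaptic endocytosis and vesicle clustering 18 were tested, 12 had a value above 0 and the median was 0.05. Sh3gl2, the endophilin that bends membrane and recruits synaptojanin, rose by 0.36 (SE 0.0685, limma adjusted p = 0.0128), and the other 17 were not called, with 0.43 for the synapsin Syn2 (adjusted p = 0.0692) and 0.39 for Synj2 (adjusted p = 0.108). The less bright Syn2 probe set had 0.09 (limma adjusted p = 0.458). Of 19 genes of dense core vesicle cargo 16 were tested, with a median of -0.05 and 0 called by limma (before adjustment 1 was higher and 4 were lower at p under 0.05). Their largest differences were -0.29 for the enkephalin precursor Penk (adjusted p = 0.141) and 0.25 for the neurotrophin Bdnf (adjusted p = 0.296).

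Immediate early genes were read beside Syt4. Of 18 listed 13 were tested, with a median of -0.08, 4 above 0 and 9 below, the lowest at -0.21. Before adjustment 2 were higher and 3 were lower at a limma p under 0.05. The nuclear receptor Nr4a3 rose by 0.30 (SE 0.0760, limma adjusted p = 0.0421), Nr4a2 had 0.49 (adjusted p = 0.0788), and Homer1 rose at a probe set of lower signal by 0.67 (limma adjusted p = 0.00593) but had 0.11 at its brightest. The other tested Homer1 probe sets had 0.02, -0.22 and 0.46, none called.

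**Figure D5:**
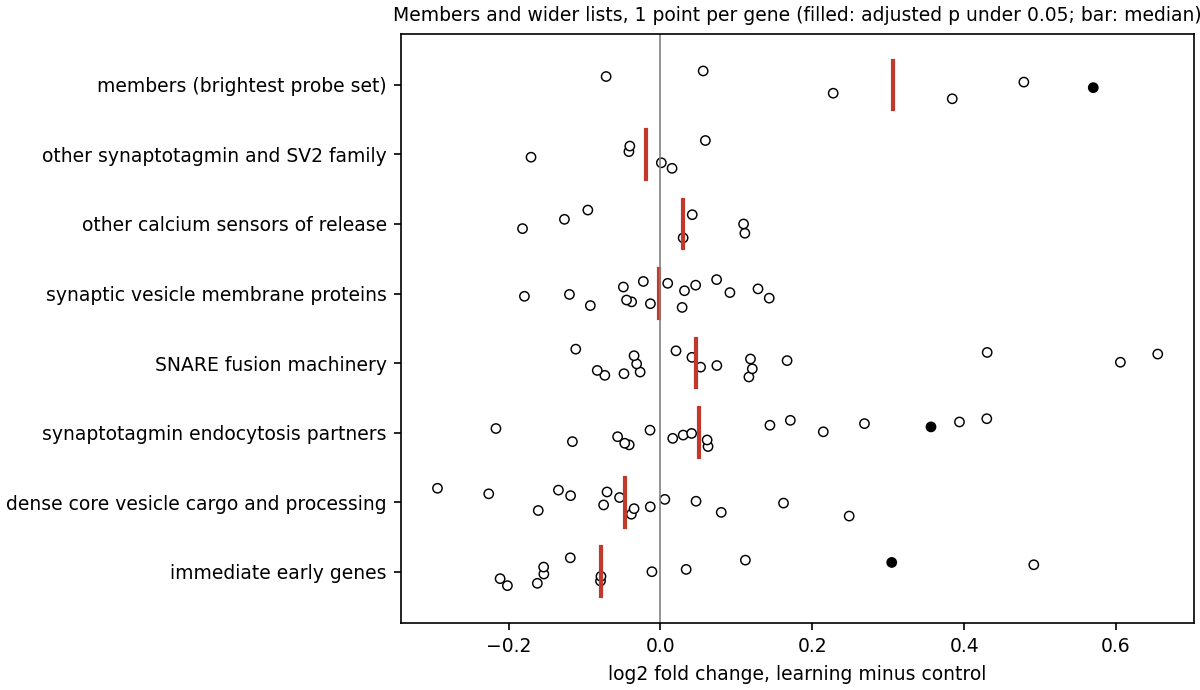
Log2 fold change, learning minus control, of each gene at its brightest probe set, for the members and 7 wider lists, with filled points for called genes and bars for list medians. The member median is 0.31 and the medians of the other lists lie between -0.08 and 0.05.

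By Pearson's r over the 14 arrays with group means taken off, the genes most like the dimmer Sv2b probe set were Maoa (r = 0.91), which degrades monoamines, the glutamate receptor Grm3 (0.90) and the BMP receptor Bmpr2 (0.89). Maoa rose by 0.53 (limma adjusted p = 0.0240), whereas Grm3 had 0.12 and Bmpr2 0.99, neither called. The genes most like Syt11 were the peroxiredoxin Prdx6 (0.91), Entr1 (0.89) and Popdc2 (0.87), with differences between groups of 0.07, 0.14 and 0.05, none called. Without control replicate 5 these became 0.76, 0.67 and 0.63, while those with Sv2b stayed between 0.90 and 0.91. These are the highest of 6836 genes less the members and were not tested.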

How the data were processed

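RNA from 14 CA3 samples was measured on Affymetrix RAE230A arrays. The deposited values are log2 levels per probe set that the authors made with GCRMA, per the submitters' processing notes. Its version and settings were not given in the sources used here. The range of the values was the basis for reading them as log2. GCRMA compresses differences near background. Groups and replicate numbers came from the sample titles, which name biological replicates. Genes came from the platform annotation (1 gene for 12789 probe sets), with symbols updated by Entrez ID against RefSeq GRCr8 (12754 matched).

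After 57 control probe sets were removed, 6346 with a mean below the 40th percentile (3.88) were called dim and left out. The other 9520 went into limma 3.58.1 (lmFit, eBayes; R 4.3.3), learning minus control without covariates, with Benjamini-Hochberg adjustment over all probe sets. Called means an adjusted p under 0.05. Single values per array were compared by exact permutation over all 3432 assignments, and correlations by 100000 permutations within groups. Named were all members, for each called member the 3 genes with the highest r, and from each wider list the called genes and the 2 largest differences. Members and lists were chosen with earlier results of these data known, so no count over them is independent evidence. On simulated data with 9520 probe sets, 200 of them changed, the fit recovered 86% of log2 changes of 0.4 and 98% of changes of 1, with 6.60% false calls. The simulated noise was independent for each probe set, without array differences shared by many probe sets. These rates therefore need not hold for the measured arrays. Replicate numbers were not treated as pairs in the main fit. Same-numbered arrays deviated together (r over 0.1) in 2 of 7 pairs, which cannot show whether animals were handled in pairs.

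Alternatives were other dim filters, variance models, array weights, normalizations, covariates, 1 value per gene, the replicate block and leaving out each array. The beta-actin and spike-in covariates were added after the data were seen. Scan dates were not used here, and batches were not tested. The precision is limited by the number of arrays.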

Additional observations from a re-analysis of the deposited data

Results flagged for a closer look

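In the 16 groups of 7 arrays formed by the 8 tested probe sets, 2 arrays lay far from the rest by Dixon's ratio of gap to range, which chance gives in about 5% of groups. Syt5 had a log2 level of 7.91 in learning replicate 1, where the other learning arrays had 8.22 to 8.34 (ratio 0.714). Syt11 had 6.98 in control replicate 5, where the other control arrays had 7.76 to 8.03 (ratio 0.739). That array also had the highest 3′/5′ ratios.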

How the results depend on the processing

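Under 31 alternatives the count of called member probe sets, 2 as reported, became 1 with no filter on dim probe sets, with a filter at the 20th percentile and with the dentate marker level as covariate, Syt11 being lost each time. It became 3, the brighter Sv2b probe set being added, with a filter at the 60th percentile and with eBayes trend, robust or not. It became 0 by limma with the Gapdh ratio or the probe set balance as covariate and with 1 brightest probe set per gene, adjusted over those alone. In each of these 4 had an unadjusted limma p under 0.05, in either direction. With the balance as covariate Syt5 had -0.21 (limma adjusted p = 0.535). The count ran from 1 to 3 when single arrays were left out, with 3 without control replicate 5, 2 without learning replicate 1 or control replicate 3 or 7, and 1 otherwise. The array-wide count of 319 became 158 with no filter, 39 with the Gapdh ratio, 177 with the hexokinase ratio, 102 with the dentate level, 0 with the balance (853 at an unadjusted p under 0.05), 143 with the spike-in level and 132 with 1 probe set per gene, and ran from 163 to 352 when single arrays were left out, falling by over 1.5 times without learning replicate 3, 4, 6 or 7 or control replicate 1, 2 or 3. With the balance as covariate the direction turned for the brighter Syt4 probe set (-0.029) and Syt7 (-0.028), and with the spike-in level for Syt5 (0.043). No other direction turned. The causes were not tested, and since the groups did not overlap in the balance, fits with that covariate cannot separate it from the group. The replicate block left 2 members called (the dimmer Sv2b probe set at adjusted p = 0.00476, Syt11 at 0.0366) and 313 probe sets over the array. Syt4's contrast between probe sets ran from 0.42 to 0.58, and that of Sv2b from -0.25 to -0.10, without single arrays.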
